A study of Mus musculus with 5 samples.

Results

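Cyclins and the inhibitors of cyclin-dependent kinases (CDKs) were examined in mouse pituitaries at embryonic day e12.5, a stage at which most progenitors of the gland still divide and the first ones leave the cell cycle. The members were 10 genes chosen by name, with 1 region each in the authors' table of all genes, of 20097 gene names in all: the cyclin genes Ccnd1, Ccnd2, Ccnd3, Ccne1, Ccne2 and Ccna2, and the inhibitor genes Cdkn1a, Cdkn1b, Cdkn1c and Cdkn2c. RNA came from 2 embryos of genotype Itgb1 f/f; Pitx1-cre (knockout libraries 13 and 16) and from 3 Itgb1 f/f littermates without the transgene (control libraries 9, 10 and 12), all of strain B6;129. Every embryo thus carried floxed Itgb1, the gene for integrin beta 1, and Cre under Pitx1 acts in oral ectoderm and pituitary, so that other cells of a dissected gland keep the gene. The labels describe separate biological replicates, and each value is a number of tags scaled to 10000000 for its library unless another scale is named.

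D cyclins activate CDK4 and CDK6 in response to growth signals, E cyclins activate CDK2 at entry into S phase, and cyclin A2 acts in S phase and G2. The Cip/Kip inhibitors p21 (Cdkn1a), p27 (Cdkn1b) and p57 (Cdkn1c) bind cyclin and CDK complexes, while p18 (Cdkn2c), an INK4 inhibitor, binds CDK4 and CDK6. In the developing mouse pituitary p57 is known for driving progenitors out of the cycle and p27 for keeping differentiating cells out of it, and mice without p27 or p18 develop pituitary tumours as adults.

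The libraries differed in more than genotype. Recovered reads over the listed genes numbered 5507288 and 4480809 in knockout libraries 13 and 16, against 5445240 to 6143263 in the controls. Rn45s, the precursor of ribosomal RNA, held 14.2% and 8.9% of tags in libraries 13 and 16, against 16.8% to 23.5% in the controls. Background was read from 409 receptor genes of smell and pheromone sensing, taken to be silent in the pituitary, which was not tested. This background came to 0.480 and 1.5 tags per kilobase in libraries 13 and 16, against 0.159 to 0.396 in the controls. The rank correlation of a gene's level with the length of its region was 0.69 and 0.93 in libraries 13 and 16, against 0.64 to 0.73 in the controls. As deposited, the median gene was 0.97 higher on the log2 scale in the knockout libraries, and with TMM factors (which equalise the bulk of genes between libraries) it was 0.04 higher. Each gene is therefore given as deposited, TMM scaled, and with background subtracted and TMM scaled. Itgb1 itself was at 446.36 and 186.36 in libraries 13 and 16, against 272.73, 426.36 and 430.91 in controls 9, 10 and 12. TMM scaled it was at 340.4 and 105.4, against 428.6 to 602.5, below every control in both, as 6.91% of genes were. It did not pass the test (log2 change -1.36 ± 0.49 SE, limma, adjusted p = 0.767). Without library 13, which leaves library 16 alone for the knockout, the change was -2.20, and without library 16 it was -0.52. Its region is not limited to the floxed part of the gene, so tags from the rest of the gene are counted too.

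The 10 pituitary epithelium markers, Pitx1 and Lhx3 among them, were detected in every library, with summed levels of 1853 and 742 tags in libraries 13 and 16, against 557 to 889 in the controls. With background subtracted and TMM scaled the sums were 1179 and 504, against 746 to 917. On that scale the 8 hypothalamic and neuronal markers summed to 555 and 351 in libraries 13 and 16, against 668 to 852 in the controls. The 5 oral epithelium markers summed to 98.0 and 184, against 53.4 to 88.0, and the 5 muscle markers to 40.6 and 63.3, against 11.4 to 34.4. The 6 mesenchyme markers summed to 391 and 333, against 498 to 537, and the 5 markers of early hormone cells to 78.8 and 359, against 342 to 502. The 5 blood markers summed to 180 and 552, against 262 to 471, and the 5 endothelium markers to 256 and 272, against 248 to 301. Of the oral epithelium markers 1 was at 0 in control 9, and of the muscle markers 1 was at 0 in control 9 and 2 in control 12. Of the blood markers 1 was at 0 in control 10. The part of these cell types in the values of cyclins and inhibitors was not tested, and in whole glands fewer cells of a type and less RNA per cell cannot be told apart.

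No cyclin or inhibitor gene passed the test between genotypes. With limma on TMM-scaled values, 0 of 19313 genes had an adjusted p under 0.05 (0% higher and 0% lower), with 386 at an unadjusted p under 0.05. edgeR's quasi-likelihood test on the recovered reads also called 0 genes, with 478 at an unadjusted p under 0.05, and DESeq2 called 25 lower genes. DESeq2 gave an adjusted p for 1 of the 10 members, Cdkn1c (0.694), and none for the other 9, which it therefore could not call. All 10 members passed the filter on low values. Cdkn1a was above every control in both knockout libraries on all 3 scales, a pattern that 6.33% of genes showed. On the TMM scale it was the 1 member above every control in both, where 8.43% of genes were, and with background subtracted the row named Ccnd2 joined it, where 8.68% were. Ccnd1, Cdkn1b and Cdkn2c were below every control in both on the TMM scale, where 6.91% of genes were, and again with background subtracted, where 7.61% were. Of these, Cdkn2c rests on 3 and 2 reads in libraries 13 and 16, against 3, 4 and 3 in controls 9, 10 and 12. As deposited no member was below every control in both, and 3 of 10 were above, where 50.2% of genes were.

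**Figure D1:**
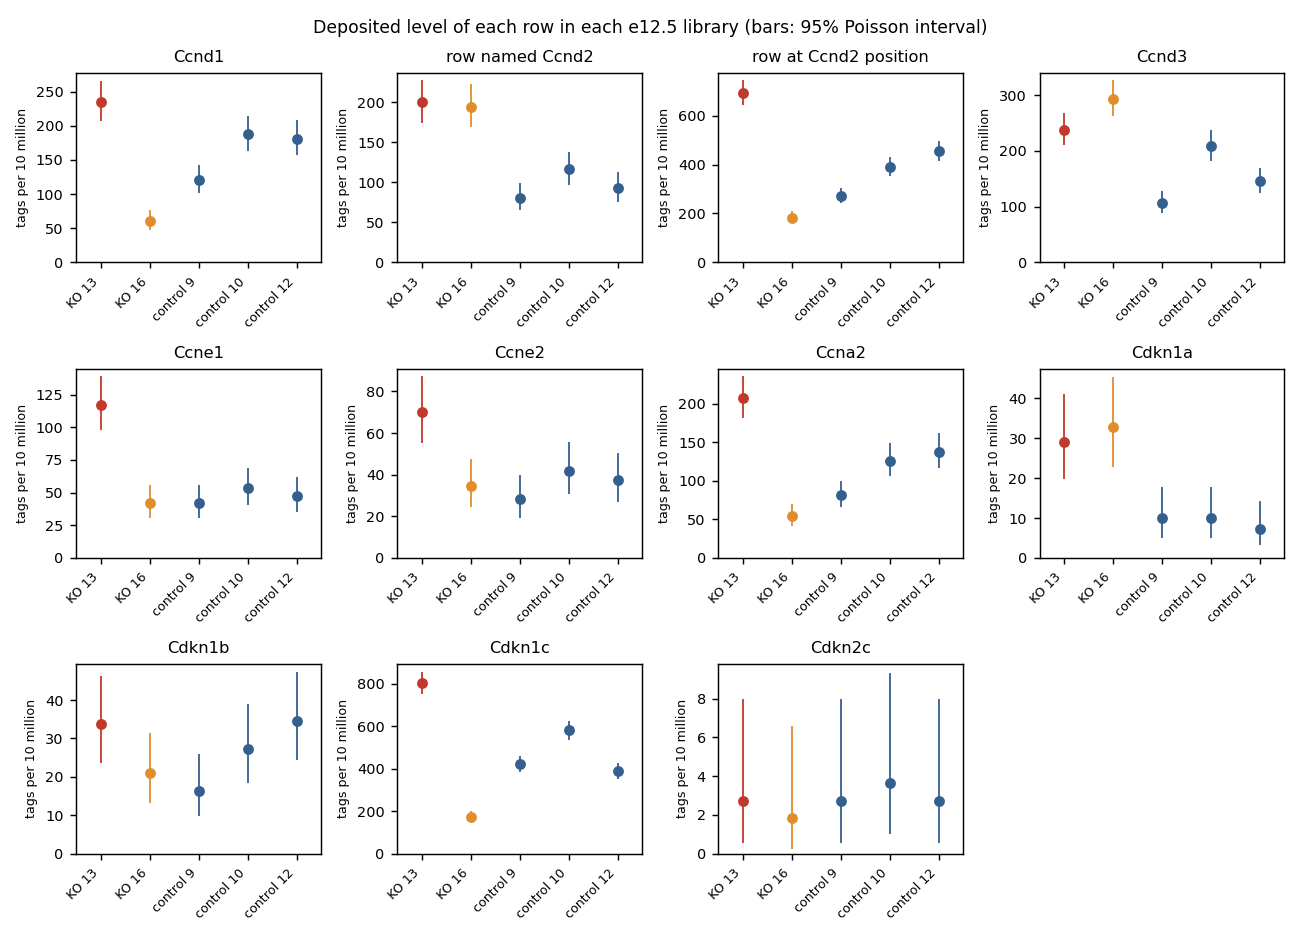
Deposited level (tags per 10000000, linear axes from 0) of the 10 members and of the row at the Ccnd2 position in knockout libraries 13 and 16 and controls 9, 10 and 12. Bars are 95% Poisson intervals, which cover counting error only. Cdkn1a is at 29.09 and 32.73 in the knockout libraries, against 7.27 to 10 in the controls, while Ccnd1, Ccna2 and Cdkn1c are highest in library 13 and lowest in library 16.

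Cdkn1a encodes p21, which stops the cycle in response to p53 and other signals. Its region (mm9 chromosome 17, 29228731 to 29237667) held 29.09 and 32.73 tags in libraries 13 and 16, against 10, 10 and 7.27 in controls 9, 10 and 12. As deposited, both knockout libraries were above every control, as 50.2% of genes were. Their counting intervals on that scale (19.9 to 41.1 and 22.9 to 45.3 tags) did not meet those of the controls (3.14 to 17.9). The deposited levels rest on 32 and 36 reads in the knockout libraries, against 11, 11 and 8 in the controls. TMM scaling multiplies libraries 13 and 16 by 0.763 and 0.565, and the controls by 1.01 to 1.65. With these factors the intervals meet. TMM scaled the levels were 22.2 and 18.5, against 16.5, 10.1 and 10.2, and with background subtracted they were 16.5 and 19.4, against 11.9, 5.92 and 6.20. The log2 change on the TMM scale was 0.72 ± 0.51 SE (limma, adjusted p = 0.767), and 1.13 ± 0.63 SE with background subtracted (limma, adjusted p = 0.836). Background for a region of this length was 14.8% and 40.9% of the deposited value in libraries 13 and 16, and 19.6% to 35.4% in the controls.

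Because Cdkn1a was the member that stood above the controls on every scale, the sequences before its annotated starts are shown, with that of Ccne1, a cyclin gene described further on, for comparison. They are from RefSeq (GRCm38.p6, a later build than the mm9 of the regions), 250 bases each, 5′ to 3′ on the gene's strand. Entries were found for 5 of the 10 members (Ccnd3, Ccne1, Cdkn1a, Cdkn1b and Cdkn2c), 8 starts in all. Capitals mark a p53 site in the first sequence (a pair of adjoining half-sites with at most 1 mismatch) and GGGCGG on either strand, the GC box bound by Sp1, in the others.
Cdkn1a upstream start, chr17:29090729-29090978, plus strand: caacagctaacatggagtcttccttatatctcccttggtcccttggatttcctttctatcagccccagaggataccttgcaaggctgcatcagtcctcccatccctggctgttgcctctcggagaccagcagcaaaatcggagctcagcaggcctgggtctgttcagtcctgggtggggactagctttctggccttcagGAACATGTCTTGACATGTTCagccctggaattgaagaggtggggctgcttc
Cdkn1a downstream start, chr17:29093519-29093768, plus strand: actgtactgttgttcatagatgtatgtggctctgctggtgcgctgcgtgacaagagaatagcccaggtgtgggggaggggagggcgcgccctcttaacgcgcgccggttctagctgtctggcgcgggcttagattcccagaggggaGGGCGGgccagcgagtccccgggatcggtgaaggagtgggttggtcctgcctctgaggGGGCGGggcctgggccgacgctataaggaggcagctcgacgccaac
Ccne1, chr7:38107491-38107740, minus strand: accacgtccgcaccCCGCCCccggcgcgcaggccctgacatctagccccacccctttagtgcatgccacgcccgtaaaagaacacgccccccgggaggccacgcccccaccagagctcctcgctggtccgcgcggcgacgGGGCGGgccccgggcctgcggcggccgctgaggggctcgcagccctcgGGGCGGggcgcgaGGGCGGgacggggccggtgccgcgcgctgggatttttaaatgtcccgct
The p53 site lies at -51 to -32 from the upstream start of Cdkn1a, and 0.0578% of 32851 promoters of this length hold one, 1 of the 8 member entries among them. GGGCGG stands on either strand in 32.7% of promoters and in 6 of the 8 member entries, with 2 matches before the downstream start of Cdkn1a and 4 before that of Ccne1. The E2F site sequences TTTCCCGC, TTTGGCGC and TTTCGCGC were in none of the 8 entries on either strand, against 0.895%, 0.417% and 0.256% of promoters. At shares this low, finding none among 8 entries says nothing about these genes. A match is a string of letters and shows no binding.

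Of the 14 genes of the p53 list, which holds the p53 gene and targets other than Cdkn1a, 0 were called. On the TMM scale 0 of 14 were above every control in both knockout libraries, beside 8.43% of all genes, and 0 were below, beside 6.91%, and counts this small say nothing about the list. Their median log2 change was -0.44, against 0.04 over all genes. Mdm2, the p53 ubiquitin ligase, was at 133.64 and 64.55 in libraries 13 and 16, against 50.91, 96.36 and 75.45 in controls 9, 10 and 12 (named after its values were seen). By level, the list's leading genes were Plk2, Btg2 and Trp53. Trp53, which encodes p53, was at 183.64 and 59.09 in the knockout libraries, against 50.91 to 70.91 in the controls, with a log2 change of -0.28 on the TMM scale. Btg2, an antiproliferative gene, was at 68.18 and 14.55, against 32.73 to 50, and Plk2, a polo-like kinase, at 98.18 and 33.64, against 41.82 to 86.36.

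Cdkn1c, which encodes p57, had the highest level of all members per kilobase of region in each of the 5 libraries. Its short region (mm9 chromosome 7, 150644644 to 150646555) held 801.82 and 171.82 tags in libraries 13 and 16, against 421.82, 580 and 389.09 in controls 9, 10 and 12. Library 13 was thus above every control and library 16 below every control. Per kilobase the controls held 242 ± 53.4 tags (SD, n = 3), and the next members in the order, Ccna2 at 18.2 ± 4.69 and Ccnd1 at 17.7 ± 3.98 (SD, n = 3), did not differ from each other beyond their spread. TMM scaled, Cdkn1c was at 611.4 and 97.1, against 696.0, 583.1 and 544.0, so that library 13 lay within the controls. With background subtracted it was at 531.4 and 169.2, against 652.5, 530.5 and 412.5, with library 13 again inside. Over both knockout libraries the log2 change was -1.30 ± 0.63 SE (limma on TMM-scaled values, adjusted p = 0.767).

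Cdkn1b and Cdkn2c, the genes for p27 and p18, were low. Cdkn1b (mm9 chromosome 6, 134871219 to 134875543) held 33.64 and 20.91 tags in libraries 13 and 16, against 16.36, 27.27 and 34.55 in controls 9, 10 and 12, and the groups overlapped. TMM scaled it was at 25.7 and 11.8, against 27.0, 27.4 and 48.3, lower in both, by a log2 change of -0.88 ± 0.52 SE (limma, adjusted p = 0.767). The change was -1.40 without library 13 and -0.35 without library 16. Library 13 lay just under control 9, the lowest of the controls. Cdkn2c (mm9 chromosome 4, 109333881 to 109337577) held 3 and 2 reads in libraries 13 and 16, against 3, 4 and 3 in the controls, and its value in library 16 was below the background for a region of its length. A difference between genotypes in Cdkn2c was not detectable at this depth.

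The row that carries the name Ccnd2, cyclin D2, does not cover the Ccnd2 gene. It lists mm9 chromosome 6, 127100207 to 127162437, whereas the changed genes of the authors' deposited table include Ccnd2 at 127075727 to 127101066 on the minus strand. The gene without 400 bp at each end is exactly the region of another row, 127076127 to 127100666, which carries the name 9330179D12Rik. In the GENCODE vM21 annotation (a later build) 9330179D12Rik is on the plus strand, opposite to Ccnd2, and has a transcript that spans 62731 bp, close to the 62231 bp of the row named Ccnd2. The same happened to other genes: of 1024 names that both tables share, the longest region of that name covered under 10% of the gene for 46, and for 36 of these a row of another name held the gene trimmed in this way (by 800 bp at the start for genes on the plus strand). The region lengths of the other 9 members differed by 214 to 954 bp from the GENCODE vM21 transcript of the same gene that was nearest in length. Both rows are given here, the second one as the row at the Ccnd2 position, chosen after its coordinates were seen. The counting is not stated to use strand, so tags of Ccnd2 and of its antisense neighbour cannot be told apart where they overlap.

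**Figure D2:**
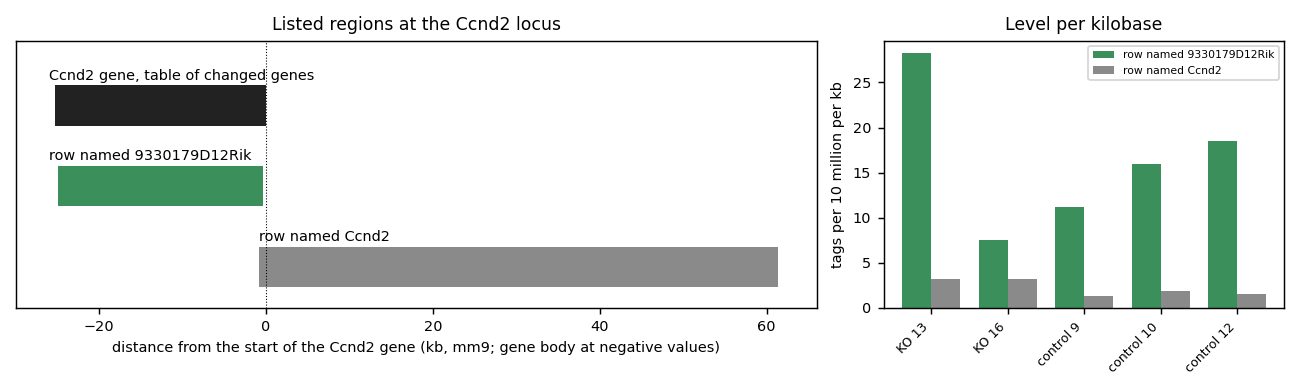
Left, the Ccnd2 gene of the authors' table and the regions of the rows named 9330179D12Rik and Ccnd2, as distance from the start of the gene in kilobases. Right, tags per 10000000 per kilobase of these rows in each library. The row named 9330179D12Rik lies on the gene and has 28.2 and 7.48 tags per kilobase in libraries 13 and 16, against 11.1 to 18.5 in the controls, while the row named Ccnd2 lies almost wholly outside the gene at 1.30 to 3.21 in all 5 libraries.

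The row at the Ccnd2 position held 692.73 and 183.64 tags in libraries 13 and 16, against 272.73, 390.91 and 454.55 in controls 9, 10 and 12. It was above every control in library 13 and below every control in library 16. TMM scaled it was at 528.2 and 103.8, against 450.0, 393.0 and 635.5, with library 13 within the controls and a log2 change of -1.04 ± 0.59 SE (limma, adjusted p = 0.767). The row named Ccnd2 held 200 and 194.55 tags, against 80.91, 116.36 and 92.73, above every control in both. TMM scaled, those levels were 152.5 and 110.0, against 133.5, 117.0 and 129.7, and no longer apart. Among the changed genes of the authors' deposited table, Ccnd2 is listed as higher in the knockout, with a log2 fold change of 1.91, a p-value of 0.000977 and values of 15 for KO and 4 for WT in a unit that the table does not give. As deposited, the mean at the gene's own position was 438 tags in the knockout libraries, against 373 in the controls, with library 13 above and library 16 below every control. The sources used here do not give which libraries and tags entered it.

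Ccnd1, cyclin D1, was the cyclin with lower TMM-scaled levels than every control in both knockout libraries. Its region (mm9 chromosome 7, 152116236 to 152125430) held 235.45 and 60.91 tags in libraries 13 and 16, against 120.91, 187.27 and 180.91 in controls 9, 10 and 12. As deposited, library 13 was above every control and library 16 below. TMM scaled the levels were 179.5 and 34.4, against 199.5, 188.3 and 252.9, and with background subtracted they were 153.3 and 47.2, against 183.6, 168.2 and 190.4. The log2 change was -1.41 ± 0.59 SE on the TMM scale and -1.07 ± 0.49 SE with background subtracted (limma, adjusted p of 0.767 and 0.836).

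Ccnd3, cyclin D3, has the longest region among the members (mm9 chromosome 17, 47642800 to 47736637, 93.84 kb), of which annotated exons make up 2447 bp. It held 238.18 and 293.64 tags in libraries 13 and 16, against 106.36, 208.18 and 145.45 in controls 9, 10 and 12. Background for that length was 18.9% and 47.9% of the value in libraries 13 and 16, against 10.3% to 22.8% in the controls. TMM scaled, the levels were 181.6 and 166.0, against 175.5, 209.3 and 203.4, and the groups overlapped.

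Ccne1 and Ccne2, the E cyclins, were higher than every control in library 13 as deposited and at or near the controls in library 16. Ccne1 (mm9 chromosome 7, 38883403 to 38892109) held 117.27 and 41.82 tags in libraries 13 and 16, against 41.82, 53.64 and 47.27 in controls 9, 10 and 12. TMM scaled it was at 89.4 and 23.6, against 69.0, 53.9 and 66.1, so that the knockout libraries lay on opposite sides of the controls. Ccne2 (mm9 chromosome 4, 11119301 to 11131829) held 70 and 34.55 tags, against 28.18, 41.82 and 37.27, and TMM scaled 53.4 and 19.5, against 46.5, 42.0 and 52.1. Its region shares 5125 bp with that of Ints8, and tags there cannot be told apart.

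Ccna2, the S phase and G2 cyclin, had a similar split (mm9 chromosome 3, 36464187 to 36470518). It held 207.27 and 54.55 tags in libraries 13 and 16, against 81.82, 126.36 and 138.18 in controls 9, 10 and 12. TMM scaled it was at 158.1 and 30.8, against 135.0, 127.0 and 193.2, with library 13 within the controls. The log2 change was -1.08 ± 0.59 SE (limma, adjusted p = 0.767). Its region shares 463 bp with that of Exosc9.

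**Figure D3:**
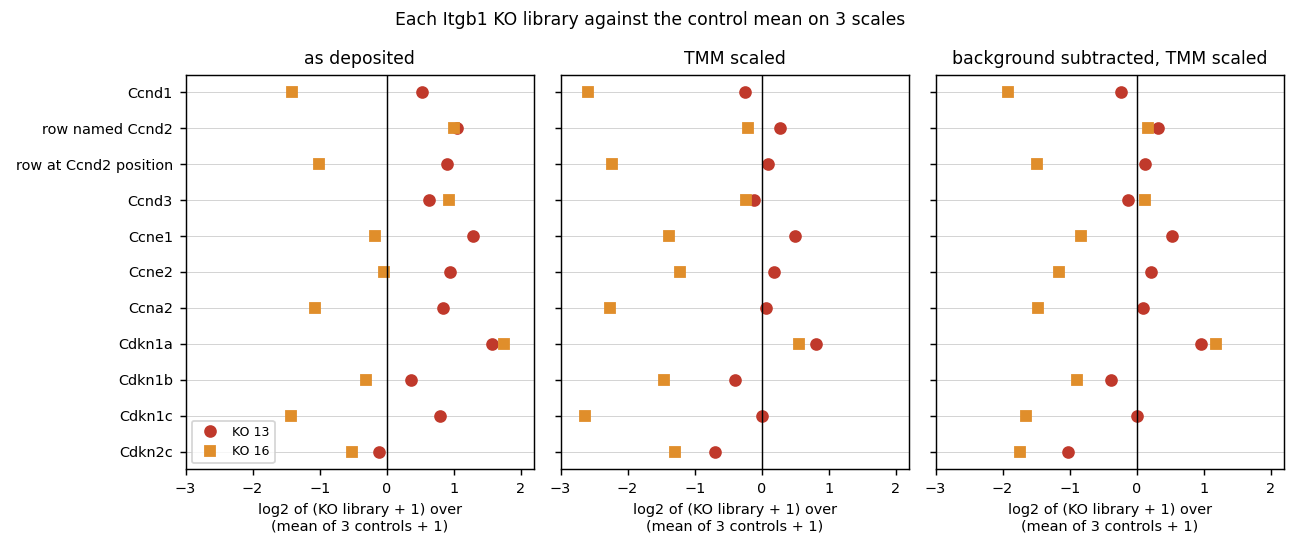
Log2 of each knockout library over the mean of the 3 controls (each value plus 1) for every member and the row at the Ccnd2 position, as deposited, TMM scaled, and with background subtracted and TMM scaled. Circles are library 13 and squares library 16. Cdkn1a lies right of 0 in both libraries on all 3 scales, and on the TMM scale Ccnd1, Ccna2 and Cdkn1c lie at -2.60, -2.26 and -2.63 in library 16 and at -0.25, 0.06 and 0.01 in library 13.

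Most of the low values came from library 16. Without library 13, which leaves library 16 alone to stand for the knockout and assumes that it varies like the controls, limma on TMM-scaled values called Ccnd1 (log2 change -2.58, adjusted p = 0.0114), Cdkn1c (-2.62, adjusted p = 0.0114), Ccna2 (-2.24, adjusted p = 0.0149) and Ccne1 (-1.37, adjusted p = 0.0416) as lower. The row at the Ccnd2 position was called too (-2.21, adjusted p = 0.0150). In that fit 11.8% of all genes were called lower and 0.953% higher. With background also subtracted, Ccnd1, Ccna2 and Cdkn1c kept an adjusted p under 0.05 (0.0261, 0.0308 and 0.0437) and Ccne1 did not (0.109), beside 11.8% of genes called lower and 4.19% higher. Without library 16, limma called no member (0.0159% of genes lower and 0% higher), and the log2 changes were 0.080 for Ccna2, 0.013 for Cdkn1c, 0.50 for Ccne1, -0.24 for Ccnd1 and 0.83 for Cdkn1a.

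Levels can be ordered only per length. Per kilobase of region the controls held 15.2 ± 3.76 tags at the Ccnd2 position (SD, n = 3 for each mean here). The spread between libraries overlapped those of Ccna2 and Ccnd1. Within each library, however, the row at that position was below Ccna2. It was at 11.1, 15.9 and 18.5 in controls 9, 10 and 12, against 12.9, 19.96 and 21.8 for Ccna2. In libraries 13 and 16 it was at 28.2 and 7.48, against 32.7 and 8.61. It was below Ccnd1 in the 3 controls (13.1, 20.4 and 19.7) and above Ccnd1 in both knockout libraries (25.6 and 6.62). Cdkn1b at 6.03 ± 2.12 and Ccne1 at 5.46 ± 0.679 came next and overlapped, followed by Ccne2 at 2.85 ± 0.554. Ccnd3 at 1.63 ± 0.547 and the row named Ccnd2 at 1.55 ± 0.290 overlapped, and Cdkn1a at 1.02 ± 0.176 and Cdkn2c at 0.820 ± 0.142 were the lowest. In the knockout libraries Cdkn1a was at 3.26 and 3.66 tags per kilobase, beside Ccnd3 at 2.54 and 3.13 and the row named Ccnd2 at 3.21 and 3.13. Those Cdkn1a levels rest on 32 and 36 reads, and their counting intervals take in the levels of both other rows. The region lengths include introns, and per kilobase of annotated exon Ccnd3 was at 62.7 ± 21.0 tags in the controls, below Cdkn1c at 239 ± 52.6 and not apart from the row at the Ccnd2 position at 55.5 ± 13.7. Cdkn1a was at 3.34 ± 0.580 on that measure, below Ccnd3. The measure divides all tags of a region, those of introns and background included, by exon length. It therefore overstates exon levels most where introns are long, as in Ccnd3. Background was 10.3% to 22.8% of the Ccnd3 value in the controls.

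**Figure D4:**
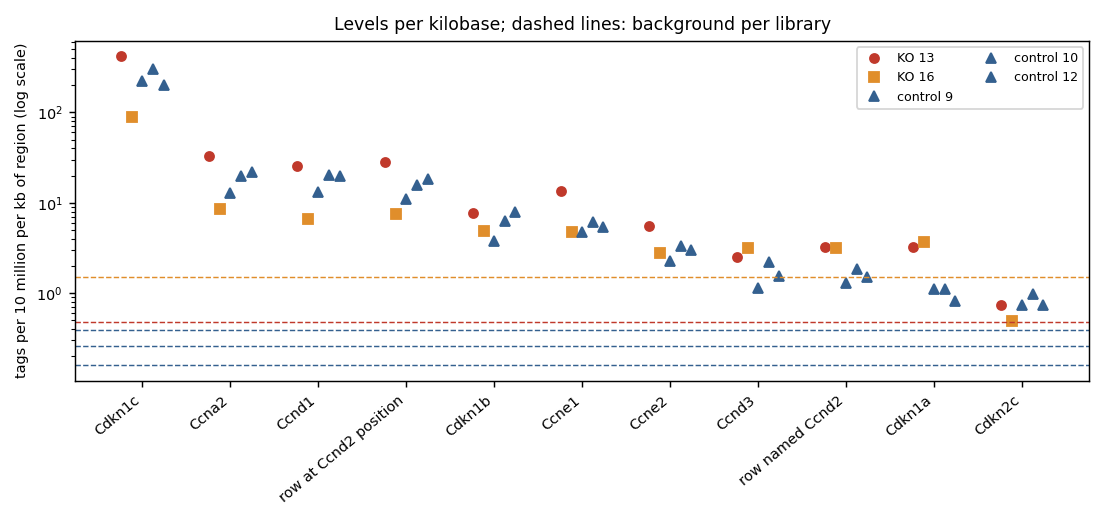
Level per kilobase of region (log axis) of each member and of the row at the Ccnd2 position in the 5 libraries, ordered by control mean, with dashed lines at the background of each library. Cdkn1c stands above all other members, at 89.9 to 419, and Cdkn2c in library 16 is at 0.492, below the background of 1.5 tags per kilobase there.

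A ratio of genes within a library does not depend on how libraries are scaled. Summed over the named rows, the 6 cyclins held 1.23 and 2.99 times the tags of the 4 inhibitors in libraries 13 and 16, against 1.02, 1.18 and 1.48 times in controls 9, 10 and 12. The difference of 0.66 in mean log2 ratio came from library 16, since it was 0.022 without that library. With the row at the Ccnd2 position in place of the row named Ccnd2, and background subtracted, the ratios were 1.73 and 2.15, against 1.37, 1.54 and 2.27, so that both knockout libraries lay within the controls. D cyclins over the 3 Cip/Kip inhibitors gave 0.779 and 2.44, against 0.688, 0.829 and 0.973. With the same row and subtraction they gave 1.29 and 1.71, against 1.05, 1.20 and 1.78. The ratio of Ccnd1 to Cdkn1c, an activator and an inhibitor of G1 kinases, overlapped between the groups, at 0.294 and 0.354 in libraries 13 and 16, against 0.287, 0.323 and 0.465 in the controls.

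Pairs of single members did separate the groups. Over the 9 rows other than Cdkn2c, with the row at the Ccnd2 position for Ccnd2 (a choice made after the values were seen), 16 of 36 ratios (44.4%) did not overlap between knockout and control libraries. Of all pairs of genes with a mean of at least 20 tags, 15.3% did not overlap. Cdkn1a, at a mean of 17.8, is under that minimum, and without it 8 of 28 ratios (28.6%) did not overlap. With background subtracted the count was 17 of 36 (47.2%), against 16% of all pairs, and 9 of 28 (32.1%) without Cdkn1a. On both scales 15 of the 36 ratios (41.7%) were apart in the same direction, and 7 of 28 (25%) without Cdkn1a. These ratios share rows, and 8 of the 15 contain Cdkn1a, which was higher in both knockout libraries relative to each of the 8 other rows. The share of all pairs that were apart on both scales was not computed. Counts of this kind for single genes were made for the members only. Cdkn1a over Cdkn1c was 0.0363 and 0.190 in libraries 13 and 16, against 0.0237, 0.0172 and 0.0187 in controls 9, 10 and 12. Counting alone gives library 13 an exact 95% interval of 0.0247 to 0.0516, which meets those of the controls, and library 16 one of 0.129 to 0.273, which does not.

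Ccnd1 was lower in both knockout libraries relative to 5 of the other 8 rows, namely Cdkn1a, the row at the Ccnd2 position, Ccne1, Ccne2 and Ccna2. These ratios share the values of Ccnd1 and are not independent. How often other genes reach such a count was not computed. Ccnd1 over Ccna2 was 1.14 and 1.12 in libraries 13 and 16, against 1.48, 1.48 and 1.31 in controls 9, 10 and 12. Ccnd1 over Ccne1 was 2.01 and 1.46, against 2.89, 3.49 and 3.83, and Ccnd1 over the row at the Ccnd2 position was 0.340 and 0.332, against 0.443, 0.479 and 0.398. The values of these ratios were thus lower in each knockout library than in any control. By counting alone the exact 95% interval of Ccnd1 over Ccna2 ran from 0.947 to 1.36 in library 13 and so met those of all 3 controls. So did that of library 16, from 0.776 to 1.61. The interval of Ccnd1 over Ccne1 ran from 1.62 to 2.50 in library 13 and from 0.986 to 2.17 in library 16. Both were below the intervals of controls 10 and 12, which began at 2.60 and 2.81. Both overlapped that of control 9, which began at 2.05. For Ccnd1 over the row at the Ccnd2 position, library 13 (0.294 to 0.392) met controls 9 and 12. Library 16 (0.248 to 0.439) met all 3 controls. Ccne1 was higher relative to 4 rows, among them Ccna2 (0.566 and 0.767 in libraries 13 and 16, against 0.511, 0.424 and 0.342 in the controls) and Cdkn1c (0.146 and 0.243, against 0.0991, 0.0925 and 0.121). The interval of Ccne1 over Ccna2 met those of all 3 controls in library 13 (0.452 to 0.705). In library 16 (0.511 to 1.14) it met those of controls 9 and 10. For Ccne1 over Cdkn1c library 13 (0.121 to 0.176) met all 3 controls, and library 16 (0.172 to 0.337) met none.

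**Figure D5:**
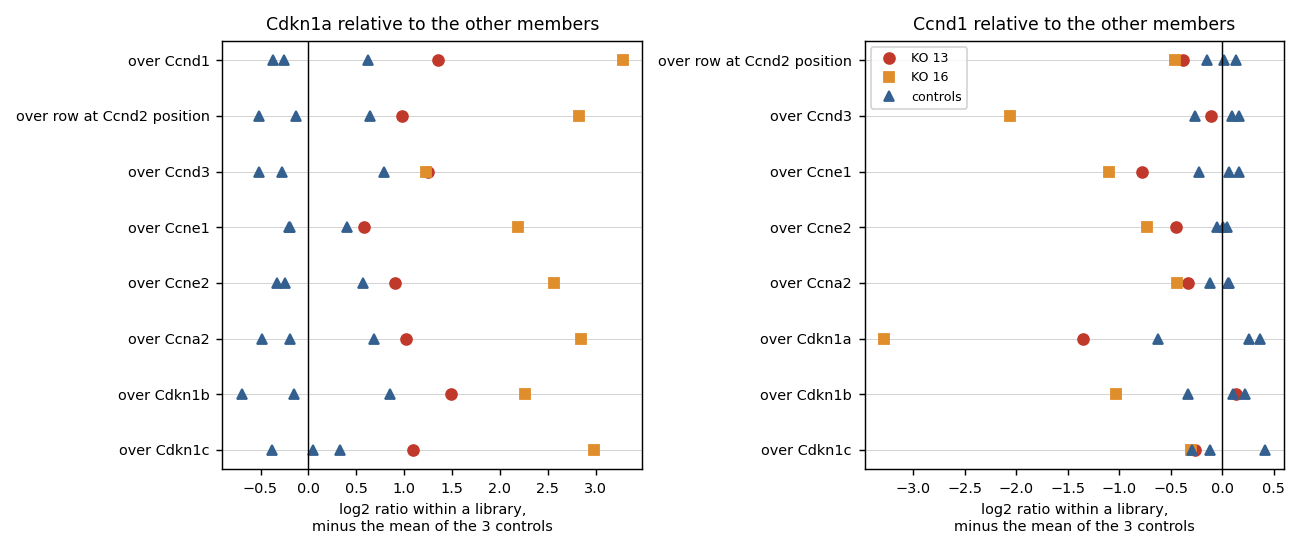
Log2 ratios within a library, with background subtracted and the mean of the 3 controls taken off, of Cdkn1a (left) and Ccnd1 (right) over each of the other members. Circles are library 13, squares library 16 and triangles the controls. All knockout points of Cdkn1a lie right of all controls in all 8 ratios, and Ccnd1 lies left of all controls in 5 of 8. The 8 ratios of a gene share its values and are not independent.

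Members were also compared by the shape of their profile, the TMM-scaled log2 values over the 5 libraries with their own mean taken off. The closest pair was Ccna2 and the row at the Ccnd2 position, at a root mean square difference of 0.04, and among 12539 genes with a mean of at least 20 tags Ccna2 was also the gene closest to that row. The row named Ccnd2 was closest among the members to Ccnd3 (0.20). Of genes outside the members, Top2a, the DNA topoisomerase of dividing cells, and Klhl9 were closest to Ccnd1 (0.06 each), and the third row bears a number in place of a gene name. Klf10 (0.07), Marcks (0.08) and 2310014L17Rik (0.09) were closest to Cdkn1c.

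The kinases and regulators around these members had no called gene either. Lists of these genes were chosen with results of these libraries known. Among the 12 CDKs and activators 10 had log2 changes below 0 on the TMM scale, beside 9294 of all 19313 genes tested. Their median was -0.33, against 0.04 over all genes. Cdk4, the partner of D cyclins, was at 544.55 and 125.45 in libraries 13 and 16, against 220, 316.36 and 295.45 in controls 9, 10 and 12. Cdk2, the partner of E and A cyclins, was at 98.18 and 40, against 44.55, 63.64 and 52.73, and the CDK-binding Cks1b at 50 and 16.36, against 10 to 20.91. In each of these 3 genes library 13 held the highest value of all, and in Cdk4 and Cdk2 library 16 held the lowest. Cdk7, of the CDK-activating kinase, was the list's 1 gene of 12 below every control in both knockout libraries on the TMM scale, near the 6.91% of all genes that were.

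Of the RB and E2F list 11 of 13 genes were measured, with a median of -0.35. Of these 10 had log2 changes below 0, beside 9294 of all 19313 genes tested. Tfdp1, the dimer partner of E2F factors, was at 230.91 and 129.09 in libraries 13 and 16, against 95.45 to 186.36 in the controls. E2f3 was at 399.09 and 246.36, against 137.27 to 320.91, and E2f6 at 90.91 and 50.91, against 34.55 to 66.36. The 13 other cyclins measured had a median of -0.57, with the mitotic cyclin gene Ccnb1 at 100.91 and 32.73, against 51.82 to 79.09. Ccnl1 and Ccnl2, cyclins linked to splicing, were at 199.09 and 50, against 65.45 to 131.82, and at 188.18 and 74.55, against 57.27 to 131.82. Library 13 was above every control in each of these 6 genes, and the median of all genes was 0.73 higher there on the log2 scale as deposited.

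Of the 4 other inhibitors, Cdkn2a, Cdkn2d and Cdkn3 held 0.91 to 40 tags over the 5 libraries, with 0 called. The list's median log2 change was 0.35 on the TMM scale and of the opposite sign, -0.49, over the 3 genes tested with background subtracted. Among 15 measured genes for turnover and transcription of G1 regulators the median was -0.32. Skp1a, a subunit of the ubiquitin ligase that marks p27, was at 410 and 91.82 in libraries 13 and 16, against 160.91 to 250.91 in the controls. Ddb1 was at 643.64 and 194.55, against 245.45 to 427.27, and Mycl1 at 97.27 and 30, against 42.73 to 58.18. The 10 Notch target and exit genes had a median of -0.73. Hes1 and Hey1, targets of Notch, were at 71.82 and 8.18, against 13.64 to 32.73, and at 243.64 and 30, against 69.09 to 92.73.

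Over the 10 members the median log2 ratio to the control mean was 0.03 in library 13 and -1.34 in library 16, against 0.00 and 0.09 over all genes. For CDKs and activators it was 0.14 and -1.04, for RB and E2F genes 0.10 and -0.89, and for other cyclins 0.07 and -1.41. For genes of turnover and transcription of G1 regulators it was 0.18 and -1.06, for the p53 list -0.11 and -0.53, and for Notch target and exit genes -0.02 and -1.22. For the 4 other CDK inhibitors it was 0.32 and 0.35, above the median gene in both. Whether other genes of like level and region length shift in the same way was not tested. The medians of members and lists are therefore not shown to be particular to cell cycle genes. With background subtracted the members' medians were 0.04 and -1.03, against -0.02 and 0.03 over all genes. The authors' deposited table lists Cdk7, E2f5, E2f4 and Cdc25b as higher in the knockout (log2 fold changes of 1.5, 1.5, 1.32 and 1.44) and Rbl2 as lower (-1.0). In the table of all genes the limma log2 changes on the TMM scale were -0.83 for Cdk7, -0.51 for E2f5, 0.04 for Cdc25b and -0.25 for Rbl2, and none passed the test.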

How the data were processed

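Ribo-Zero removed ribosomal RNA from Trizol-extracted total RNA, and strand-specific ScriptSeq v2 libraries were read on a HiSeq 2000, per the labels' protocols. Tools named in the submitters' processing notes are HOMER, Bowtie2 and edgeR, and the build is mm9, with no roles or versions. The authors deposited a normalized signal per gene region, in tags scaled to 10000000 per library, per the file headers. All 21022 regions are listed on the plus strand and span introns. The longest region per name was kept. The authors' deposited table of changed genes (1140 genes) holds a log2 fold change, linear fold changes (ratio), a p-value and a score per genotype with no unit given.

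Reads were recovered from the steps of the values: 100.00% were multiples of 10/11 tags to within 0.01 reads, as for 11000000 total tags. Background per kilobase came from 409 autosomal olfactory and vomeronasal receptor genes, and was multiplied by region length and subtracted with a floor of 0. TMM factors came from edgeR 4.0.16. Genotypes were compared on log2(TMM-scaled value + 1) by limma 3.58.1 with a trend (R 4.3.3), over 19313 genes with a mean of at least 1, Benjamini-Hochberg adjusted over all of them at 0.05. Fold changes on this scale understate changes of low genes. TMM was used because the median gene differs between genotypes in the deposited scaling. Count tests on recovered reads used edgeR and DESeq2 1.42.0. Counting intervals are exact (Poisson, or binomial for ratios) at 95% and cover counting error only. The fit was run on simulated counts with the same low spread for all genes. That simulation had no background and no split between knockout libraries, so it does not cover these features of the data. The members and lists were chosen with earlier results of these data known. The text names all members, Itgb1, and the 3 genes of each list with the highest level per kilobase unless it says otherwise, apart from 1 gene that is not reported here. Ratios of single pairs, and the row at the Ccnd2 position, were added after the data were seen.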

Additional observations from a re-analysis of the deposited data

How the results depend on the processing

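The count of called genes was 0 with limma on TMM-scaled values and under every other scaling, filter and pseudocount and with edgeR, and 25 with DESeq2. It ran from 0 to 2461 when single libraries were left out, and was 2875 with background subtracted and library 13 left out. Under the 16 alternatives run for each, the log2 change of Cdkn1a stayed above 0 and that of Ccnd1 below 0. On values as deposited the log2 changes of Ccnd3, Ccne1, Ccne2 and Cdkn1b turned to 0.84, 0.56, 0.47 and 0.087. The change of Ccnd2 was 0.03 for the named row and -1.04 for the row at its position. With single libraries left out the log2 changes ran from -0.20 to 0.26 for the row named Ccnd2, from -1.37 to 0.50 for Ccne1, from -1.21 to 0.18 for Ccne2, from -2.24 to 0.080 for Ccna2 and from -2.62 to 0.013 for Cdkn1c. With background also subtracted and library 16 left out they were 0.53 for Ccne1, 0.21 for Ccne2, 0.091 for Ccna2 and 0.022 for Cdkn1c, and with library 13 left out 0.12 for Ccnd3. The knockout minus control difference in log2 ratio of cyclins to inhibitors was 0.66, and 0.41 with background subtracted, 0.33 per kilobase, 0.39 with the row at the Ccnd2 position, 0.19 with that row and background subtracted, and 0.022 to 1.30 with single libraries left out. That of D cyclins to Cip/Kip inhibitors was 0.75, and 0.46 with background subtracted, 0.23 per kilobase, 0.39 with the row at the Ccnd2 position, 0.18 with that row and background subtracted, and -0.076 to 1.57 with single libraries left out. The cause of these shifts was not tested. Cdkn2c had no value with a mean of at least 5. No paired analysis was made, because the groups share no replicate numbers and the litter of each embryo was not known here. With 2 knockout libraries that differ from each other by more than the controls do, genotype and library cannot be told apart for most members, and Cdkn1a, Cdkn1b and Cdkn2c rest on under 40 reads in every library.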
